A study of Mus musculus with 2 samples.

Results

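CUT&Tag peaks of DLX2, a homeodomain transcription factor of the jaw and forebrain, were examined around 46 genes of the BMP and TGF-β signaling pathway. The genes were taken from a list of ligands, receptors, Smad proteins, antagonists, Id targets and latent TGF-β binding proteins. Each gene was given a window, which was its annotated extent in GRCm38 plus 100 kb on each side, out of 21779 protein-coding genes in all. The study profiled 2 libraries of maxillary process cells, the embryonic tissue that forms most of the upper jaw, from E12.5 wildtype C57BL/6 embryos without a transgene or treatment. Both were made with the same antibody to DLX2, and are numbered replicate 1 and 2 by record order alone. No control library or other genotype was used here, so that nothing was compared between groups. It is not stated how many embryos went into a library, and a peak list holds no expression values with which to check the tissue. CUT&Tag uses an antibody to bring a transposase to its target in permeable cells, and sequenced fragments pile up as peaks where the target sits.

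Ligands of the BMP and TGF-β family bind pairs of receptor kinases at the cell surface, and the receptors phosphorylate Smad proteins. *Smad1*, *Smad5* and *Smad9* encode the Smads of BMP signals, and *Smad2* and *Smad3* those of TGF-β and activin signals. These join SMAD4 and act in the nucleus, where the *Id* genes are well-known targets of BMP signals, whereas SMAD6 and SMAD7 hold the pathway back. In the embryonic face the pathway is known for its part in outgrowth of the facial processes, tooth formation and closure of the palate.

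The start sites of these genes are shown first. Peaks were nearly absent from them, as they were from the promoter windows of protein-coding genes in general. RefSeq promoter sequences of GRCm38.p6, from 250 bases before to 50 bases after a start site, were matched to 31 of the 46 genes, which had 37 such windows. A peak met 1 of the 37 windows in replicate 1, which was that of *Id3*, and 0 of 37 in replicate 2. A count of 0 allows a share of up to 8.11%. Among 21263 promoter windows of protein-coding genes, 0.837% met a replicate 1 peak, 2.9% met a replicate 2 peak and 0.165% met a shared region, which is a segment covered by a peak of each replicate. In the sequence of *Id3*, which encodes an inhibitor of helix-loop-helix factors, capitals mark the 55 bases under the replicate 1 peak. The *Tgfb2* and *Bmpr1b* windows are the ones with a replicate 2 peak nearest to the start site. Neither of these windows reaches that peak, and no base of them lies under a peak. Capitals there mark a motif that each window holds, outside the peak. It is the E-box CACGTG in *Tgfb2* and the homeodomain core TAATT in *Bmpr1b*.
Id3 (chr4:136143572-136143871, + strand): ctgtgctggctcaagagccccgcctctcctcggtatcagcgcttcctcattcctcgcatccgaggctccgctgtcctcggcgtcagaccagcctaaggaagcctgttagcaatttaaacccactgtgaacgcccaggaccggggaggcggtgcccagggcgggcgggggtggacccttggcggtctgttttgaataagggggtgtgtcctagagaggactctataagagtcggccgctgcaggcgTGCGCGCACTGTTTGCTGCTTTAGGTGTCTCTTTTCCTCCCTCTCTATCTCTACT
Tgfb2 (chr1:186705940-186706239, − strand): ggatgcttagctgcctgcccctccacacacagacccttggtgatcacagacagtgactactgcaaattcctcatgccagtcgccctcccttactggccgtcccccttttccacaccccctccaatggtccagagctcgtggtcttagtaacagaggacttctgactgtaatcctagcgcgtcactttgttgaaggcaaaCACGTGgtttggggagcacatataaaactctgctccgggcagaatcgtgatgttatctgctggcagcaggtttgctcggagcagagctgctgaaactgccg
Bmpr1b (chr3:141982215-141982514, − strand): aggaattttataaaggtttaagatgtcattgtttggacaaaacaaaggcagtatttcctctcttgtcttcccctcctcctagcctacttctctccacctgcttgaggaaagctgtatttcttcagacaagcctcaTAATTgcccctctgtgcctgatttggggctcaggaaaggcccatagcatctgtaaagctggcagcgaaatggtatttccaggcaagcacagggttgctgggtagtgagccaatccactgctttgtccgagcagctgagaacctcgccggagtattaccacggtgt

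The *Id3* peak lay at chr4:136143817-136144172 and had a fold enrichment of 3.47, a −log10 q of 1.33 and 4 fragments at its summit. Fold enrichment is the deposited ratio of the signal at a peak's summit to the background around it in that library, and both lists stop at a −log10 q of 1. The nearest replicate 2 peak was 7.24 kb from the *Id3* start site. Inside *Tgfb2*, which encodes a TGF-β ligand, a replicate 2 peak lay 0.297 kb from the matched start site, itself an inner one, with a fold of 5.07 and 10 fragments. At an inner start site of *Bmpr1b*, which encodes a type I BMP receptor, a replicate 2 peak lay 0.338 kb away with a fold of 4.28 and 8 fragments. From the matched start sites, the nearest replicate 1 peak was 17.4 kb away at *Tgfb2* and 141 kb away at *Bmpr1b*. None of these 3 peaks near a start site was met by the other replicate.

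Short motifs were searched on both strands of the 37 promoter windows. These belong to 31 genes, and some overlap, as at *Smad5* and *Bmpr1b*. The intervals and limits treat the windows as independent. TAATTA, the core that DLX homeodomains are known to prefer, was found in 0 of them, against 4.53% of the promoter windows of protein-coding genes, and a count of 0 allows up to 8.11%. The shorter cores TAATT or AATTA, which every TAATTA also holds, stood in 6 windows, or 16.2% (95% Wilson interval 7.65 to 31.1%), against 23.5%. These 6 belonged to *Bmpr1b*, *Smad1*, *Bmp5*, *Inhba*, *Smad5* and *Ltbp1*. The RUNX core TGTGGT stood in 2 windows, of *Nodal* and *Ltbp1*, or 5.41% (interval 1.5 to 17.7%), against 15.0%. The E-box CACGTG stood in 3 windows, of *Tgfb2*, *Bmp6* and *Bmp4*, or 8.11% (interval 2.8 to 21.3%), against 7.84%. Motifs inside the peaks themselves were not analysed here, as no genome sequence was used.

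Most of the 46 genes had peaks at a distance. A replicate 1 peak lay within 100 kb of 44 genes and a replicate 2 peak within 100 kb of all 46. The same held for 83.0% and 91.7% of protein-coding genes. A shared region lay within 100 kb of 39 genes, or 84.8% (95% Wilson interval 71.8 to 92.4%), against 60.2% of protein-coding genes. Long genes have long windows, so the share was also set against genes of like length. With each gene given the share of its length class, protein-coding genes came to 63.2%, and those on autosomes, where all 46 genes lie, to 65.9%. A list of 52 other genes of the pathway, among them *Lefty1*, *Bambi* and *Smurf1*, was treated in the same way. Of these, 43 had a shared region within 100 kb, or 82.7% (interval 70.3 to 90.6%), against 59.1% for protein-coding genes of their lengths. The windows of the 52 genes merged into 47 stretches, and the interval treats the genes as independent. The window of *Acvr1c*, on this list, also reaches regions counted for *Acvr1*, so the lists are not wholly separate. The intervals of both lists overlapped, and a difference between them was not tested.

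**Figure D1:**
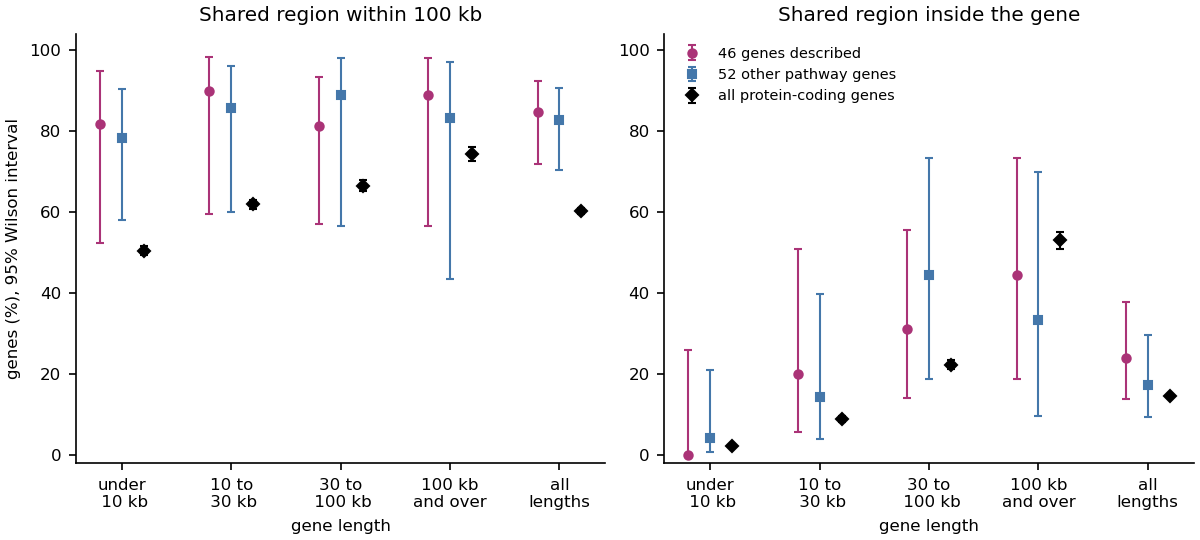
Share of genes (%) with a shared region within 100 kb (left) and inside the gene (right) by gene length, with 95% Wilson intervals, for the 46 genes described, 52 other pathway genes and all protein-coding genes. Within 100 kb, the 46 genes lie above all protein-coding genes in each length class (81.8% against 50.5% under 10 kb, 88.9% against 74.4% at 100 kb and over), but their interval excludes the share of all protein-coding genes in the class under 10 kb alone (52.3 to 94.9%). Inside the gene their intervals include that share in each class. Shares of all protein-coding genes shown here include the X and Y chromosomes. Over all lengths and within 100 kb that share was 60.2%, and 63.2% on autosomes, where all 46 genes lie. The limit of 52.3% is close to 50.5%, and the class under 10 kb was not set against autosomes alone.

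The windows of the 46 genes merged into 45 stretches of 12.3 Mb and held 98 shared regions, or 7.96 per Mb (95% Poisson interval 6.47 to 9.71). Merged windows of all protein-coding genes held 4.86 per Mb and those on autosomes 5.26, so that the density was 1.64 and 1.52 times theirs. The intervals cover counting error only. The peaks of each library were denser in these windows as well, before any overlap was asked for. Replicate 1 had 222 peaks there, or 18 per Mb against 12.6 in all coding windows, and replicate 2 had 540, or 43.9 against 28.2. On autosomes the coding windows held 13.7 and 30.3 per Mb. Counted per gene, the contrast was smaller. The 46 genes had a mean of 4.83 replicate 1 peaks, 11.7 replicate 2 peaks and 2.13 shared regions a window. Autosomal protein-coding genes of the same lengths had 4.2, 9.75 and 1.56. Of the replicate 1 peaks in the windows, 43.7% (interval 37.3 to 50.3%) met a replicate 2 peak, against 38.9% of all replicate 1 peaks. Of the replicate 2 peaks, 16.7% (interval 13.8 to 20%) met a replicate 1 peak, against 17.2%. Windows of the 52 other genes held 8.75 shared regions per Mb (interval 7.12 to 10.6). Without a control library, peaks of DLX2 and peaks of open sequence cannot be told apart.

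The number of shared regions per gene ranged from 0 to 7 with a median of 2, against a median of 1 for protein-coding genes. Of the 46 genes, 7 had none, 14 had 1, 9 had 2, 10 had 3 or 4, and 6 had 5 or more. These last 6 genes were 13.0% of the list (interval 6.12 to 25.7%), and 4.86% of protein-coding genes had as many. Replicate 2 had more peaks than replicate 1 at 43 genes and the same number at *Bmp4*, *Inhba* and *Fst*. The longer list of replicate 2 (62093 peaks against 28061) goes with this, as its peaks outnumbered those of replicate 1 by 2.43 times in the windows and by 2.21 times overall. Peak counts in replicate 1 and replicate 2 were correlated across the 46 windows, which differ in length, with a Spearman's rho of 0.691.

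**Figure D2:**
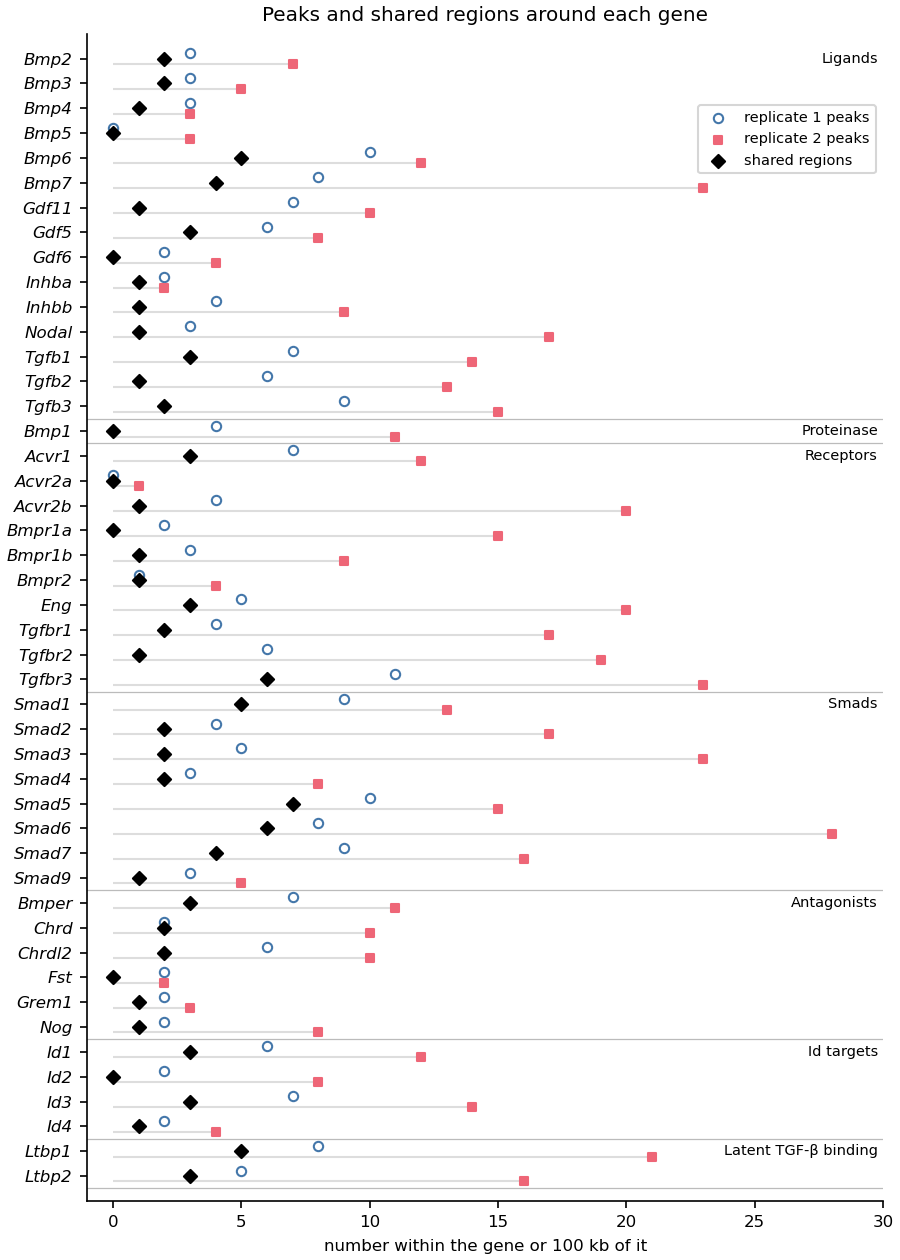
Number of replicate 1 peaks (open circles), replicate 2 peaks (squares) and shared regions (diamonds) in each gene or within 100 kb of it, for the 46 genes in blocks by role. Symbols are set apart vertically for legibility. *Smad5* has the most shared regions, 7, and *Smad6* the most replicate 2 peaks, 28, while *Bmp5* and *Acvr2a* have no replicate 1 peak.

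Shared regions lay some way from the start sites, as they did over all protein-coding genes, where the distance was longer. Of the 98, 21 lay inside a listed gene, 77 outside it at a median of 40.1 kb, and 0 were outside within 2 kb of it. Regions this close were few among protein-coding genes too. The share with a region was 14.6% inside the gene and 16.0% with 2 kb added on each side. For the 31 genes with a matched start site, the nearest shared region was a median of 33.5 kb away, against 80.9 kb over 17274 protein-coding genes. The closest was 8.32 kb from *Smad5*, and 9 of the 31 genes had one within 20 kb, or 29.0%, against 17.5% of protein-coding genes. Neither of these background values was limited to autosomes or matched for length, and no interval was computed for the 29.0%. A shared region inside the gene was present for 11 of the 46 genes, or 23.9% (interval 13.9 to 37.9%). The share of protein-coding genes was 14.6%, and 20.7% at the same lengths. For 54 of the 98 regions the listed gene was the nearest protein-coding gene or held the region, which left 26 genes with a region of their own. The other 44 had another protein-coding gene nearer, and 26 of these lay inside it. For 13 genes every shared region in the window was of this kind. How often a gene is nearest to its regions was not computed over all protein-coding genes. These counts of nearest genes, here and below, thus have no background to be read against.

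**Figure D3:**
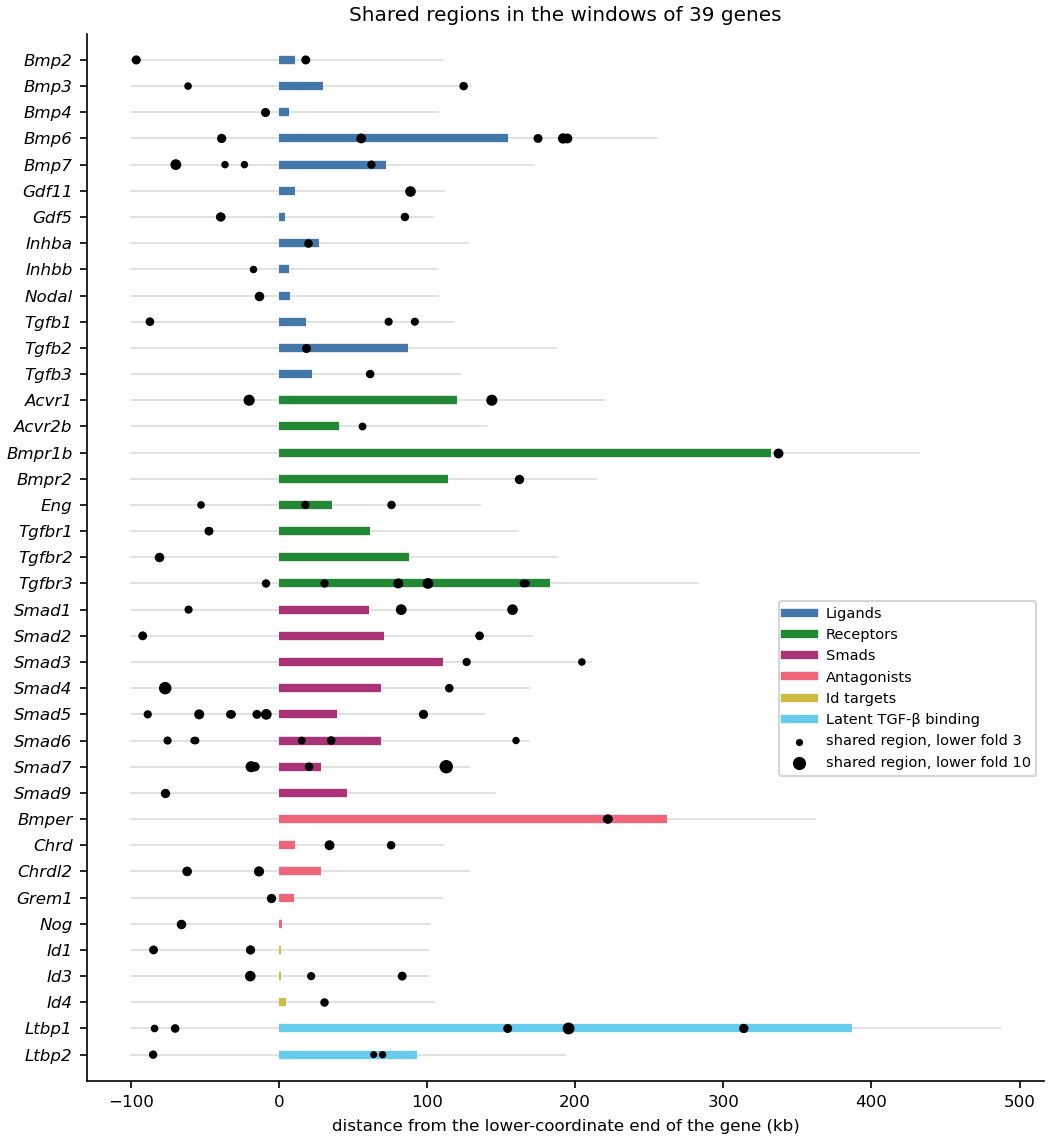
Position of the 98 shared regions in the windows of the 39 genes that have one, in kb from the end of the gene with the lower coordinate. Coloured bars are genes, grey lines their 100 kb flanks, and the area of a dot grows with the fold of the weaker replicate. Dots lie both inside genes, as in *Tgfbr3*, and outside, as in the cluster on the lower-coordinate side of *Smad5*, with none within 2 kb outside a gene.

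The regions were of ordinary strength. Their median fold was 5.05 in replicate 1 and 4.76 in replicate 2, against 5.05 and 5.12 over all 10921 shared regions. The median number of fragments at the summit, recovered from the deposited fold and p, was 7 in replicate 1 and 11 in replicate 2, against 7 and 12. Taking the fold of the replicate where it was lower, called the lower fold, the median was 4.32 against 4.51, and 32 regions, or 32.7% (interval 24.2 to 42.4%), reached 5, against 35.1% of all shared regions. Fold values of the replicates followed each other loosely over the 98 regions (Spearman's rho 0.37), against 0.44 over all shared regions. Some of the 98 share a peak, since they rest on 97 peaks of replicate 1 and 90 of replicate 2. They make 87 separate places when regions within 1 kb are counted once.

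**Figure D4:**
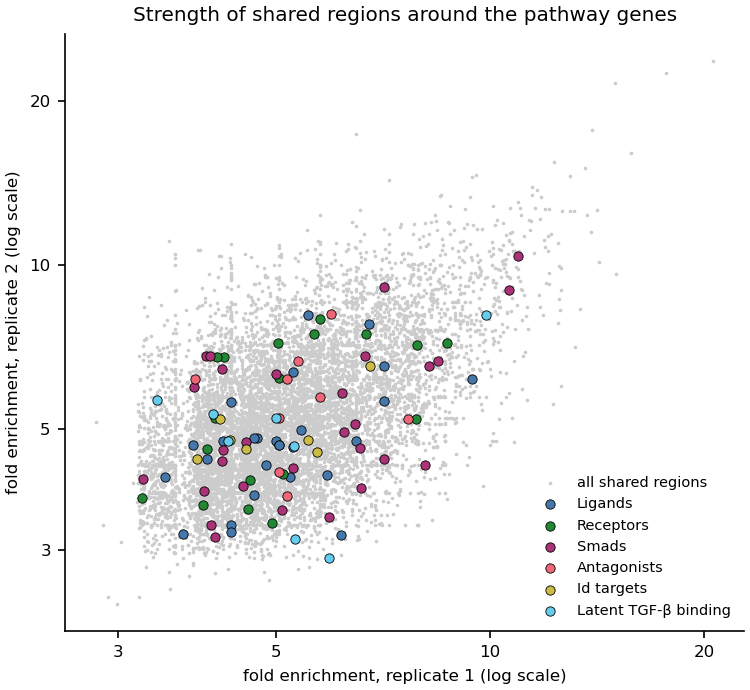
Fold enrichment of shared regions in replicate 1 (x axis) and replicate 2 (y axis), both on log scales. Grey dots are all shared regions and coloured dots the 98 in the windows of the pathway genes, by the role of the gene. The coloured dots lie within the grey cloud, and the highest lower folds, 10.37 and 8.99, belong to Smad windows.

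Of the 10 regions with the highest lower fold, 5 lay in Smad windows, 2 in that of *Acvr1* and 1 each in those of *Ltbp1*, *Bmp7* and *Tgfbr3*. The first, at chr18:75480130-75480624, was 84.2 kb from *Smad7* and inside *Ctif*, with a replicate 1 fold of 10.97 on 20 fragments and a replicate 2 fold of 10.37 on 33. It ranked 50 among all shared regions by lower fold. The second, at chr18:73557909-73558252, was 76.5 kb from *Smad4* and nearer to *Mex3c*, with folds of 10.64 and 8.99. The third, at chr17:75200944-75201197, lay inside *Ltbp1* with folds of 9.88 and 8.09, and 13 and 16 fragments. A pair of regions around *Acvr1*, which encodes a type I receptor, came next. These were at chr2:58426213-58426546, with folds of 8.69 and 7.20, and at chr2:58590022-58590415 inside *Upp2*, with folds of 7.89 and 7.14. The remaining regions of the 10 were at *Smad7*, *Bmp7*, *Tgfbr3*, *Smad1* and *Smad5*, and are described with those genes. For 7 of the 10 the listed gene was the nearest protein-coding gene or held the region.

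Among the 15 ligand genes, 13 had a shared region in the window and 4 had one inside the gene. Over all protein-coding genes these shares were 60.2% and 14.6%. The ligand genes had 27 shared regions, a mean of 1.8 a gene, against 1.38 for protein-coding genes of their lengths. Shares and means of protein-coding genes, here and for the other roles, include the X and Y chromosomes. *Bmp6*, which encodes a BMP ligand also active in iron balance, had 10 replicate 1 peaks, 12 replicate 2 peaks and 5 shared regions. One lay inside *Bmp6* at chr13:38401173-38401447, with folds of 5.55 and 8.08 in replicates 1 and 2, and 3 others lay in or nearest to the neighbouring *Txndc5*. One of these, at chr13:38537464-38537772 and 37.1 kb from *Bmp6*, had the highest lower fold of the window, with folds of 9.45 and 6.18. *Bmp7*, a ligand gene of kidney, eye and skeleton, had 8 and 23 peaks and 4 shared regions, all nearest to *Bmp7* or in it. The strongest of them was at chr2:172798301-172798632, 69.4 kb away, with folds of 6.77 and 7.80 and 13 and 24 fragments. The one inside *Bmp7*, at chr2:172930454-172930570, had folds of 4.0 and 4.40.

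*Bmp4* and *Bmp2*, ligands of facial outgrowth and bone, had few peaks and no shared region inside the gene. *Bmp4* had 3 peaks in each replicate and 1 shared region, 9.33 kb away, with folds of 6.49 and 4.76. *Bmp2* had 3 and 7 peaks and 2 shared regions, 7.38 and 96.1 kb away, both with *Bmp2* as the nearest protein-coding gene. *Bmp3*, an unusual member that opposes BMP signals in bone, had 3 and 5 peaks and 2 shared regions, both inside other genes, *Cfap299* and *Prkg2*. *Bmp5* had 0 peaks in replicate 1, 3 in replicate 2 and no shared region within 395 kb.

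Of the activin and nodal genes, *Inhba*, which encodes the activin βA subunit needed for tooth development, had 2 peaks in each replicate and 1 shared region. It lay inside *Inhba* at chr13:16023966-16024060 with folds of 4.83 and 4.28, on 6 and 8 fragments. *Inhbb*, for the βB subunit, had 4 and 9 peaks and 1 shared region of 8 bp. *Nodal*, a ligand of early axis formation, had 3 and 17 peaks and 1 shared region 13.2 kb away with folds of 5.28 and 6.36. The peak numbers thus differed between the replicates most at *Nodal* in this group, and agreed at *Inhba*.

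Each of the 3 TGF-β ligand genes had a shared region in its window, but 1 had it in the gene. In *Tgfb2* it lay at chr1:186641168-186641465 with folds of 5.05 and 4.67, and the window had 6 and 13 peaks. *Tgfb3*, required for fusion of the palatal shelves, had 9 and 15 peaks and 2 shared regions, both inside *Ift43* and within 1 kb of each other. *Tgfb1*, expressed widely and known for its immune role, had 7 and 14 peaks and 3 shared regions, of which 2 lay inside *Axl*. Neither *Tgfb1* nor *Tgfb3* was thus the gene closest to any of its regions.

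The growth and differentiation factor genes were alike in this respect. *Gdf5*, a gene of joint formation, had 6 and 8 peaks and 3 shared regions, all inside *Uqcc1* or *Fer1l4*. *Gdf11*, which acts in trunk patterning, had 7 and 10 peaks and 1 shared region 77.2 kb away, with folds of 7.09 and 6.53. *Gdf6*, another gene of joints and skull sutures, had 2 and 4 peaks, and its nearest shared region was 611 kb away. *Bmp1*, which encodes a proteinase that processes procollagen and frees BMPs from chordin, had 4 and 11 peaks and no shared region within 332 kb.

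Receptors and co-receptors differed widely among themselves. Of the 10 genes, 8 had a shared region, against 66.5% of protein-coding genes of 30 to 100 kb and 74.4% of longer ones. The 10 genes had 18 shared regions in all, a mean of 1.8 against 1.82 for protein-coding genes of their lengths. *Tgfbr3*, which encodes betaglycan, a co-receptor that presents TGF-β2, had the most. Its window held 11 and 23 peaks and 6 shared regions, 5 of them inside the gene. The strongest lay at chr5:107206982-107207445 with folds of 6.70 and 7.47 and 11 and 21 fragments, followed by chr5:107187136-107187273 with folds of 5.77 and 7.95. The others inside had folds between 3.24 and 4.59 in both replicates, and the last region lay 8.52 kb outside. *Eng*, which encodes endoglin, the related co-receptor of endothelial cells, had 5 and 20 peaks and 3 shared regions, 1 of them inside *Eng* at chr2:32664443-32664564 with folds of 3.99 and 4.59.

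The type I receptor genes had their shared regions outside the gene. *Acvr1* had 7 and 12 peaks and 3 shared regions, 19.9 to 23.2 kb from the gene, and was the nearest protein-coding gene to 2 of them. *Bmpr1b* had 3 and 9 peaks and 1 shared region 4.69 kb away, with folds of 5.65 and 7.46. *Tgfbr1*, for the type I TGF-β receptor, had 4 and 17 peaks and 2 shared regions, both inside *Col15a1* and under 1 replicate 2 peak. *Bmpr1a*, for another type I BMP receptor, had 2 peaks in replicate 1, 15 in replicate 2 and no shared region, the nearest being 143 kb away.

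The type II receptor genes had fewer still. *Tgfbr2* had 6 and 19 peaks and 1 shared region, inside *Gadl1* and 80.8 kb away, with folds of 7.87 and 5.22. *Bmpr2* had 1 and 4 peaks and 1 shared region inside *Fam117b*, and *Acvr2b* had 4 and 20 peaks and 1 shared region inside *Exog*. *Acvr2a* had 0 peaks in replicate 1 and 1 in replicate 2, the fewest of the 46 genes, and its nearest shared region was 437 kb away. No gene of a type II receptor was thus the nearest protein-coding gene to a shared region within 100 kb of it.

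All 8 Smad genes had a shared region, with 29 regions in 25 separate places. Of protein-coding genes, 61.9% had one at 10 to 30 kb, 66.5% at 30 to 100 kb and 74.4% at longer lengths. The Smad genes had a mean of 3.62 a gene and a median of 3, against a mean of 1.56 for protein-coding genes of their lengths. They had 51 peaks in replicate 1 and 125 in replicate 2. This description follows a choice of list made with earlier results known, and it was not tested. For 17 of the 29 regions the Smad gene was the nearest protein-coding gene or held the region, and 6 of the 8 genes had such a region.

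Of the Smads of BMP signals, *Smad5* had the most shared regions of the 46 genes. Its window held 10 replicate 1 peaks, 15 replicate 2 peaks and 7 shared regions, none inside the gene. Of these, 6 lay on its lower-coordinate side, where *Tgfbi* lies and where the *Smad5* start site is. The strongest, at chr13:56694391-56694691, was 8.32 kb from *Smad5* with folds of 8.45 and 6.65 and 13 and 16 fragments, and for 2 of the 7 *Smad5* was the nearest protein-coding gene. *Smad1* had 9 and 13 peaks and 5 shared regions in 3 places, none inside the gene. Of these, 3 lay under 1 replicate 2 peak with a fold of 6.80, 21.3 to 22 kb from the gene, and the strongest of them, at chr8:79420890-79421127, had a fold of 6.68 in replicate 1. Another *Smad1* region, 96.6 kb away, had folds of 8.20 and 6.54. *Smad9* had 3 and 5 peaks and 1 shared region, nearest to *Supt20*.

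The Smads of TGF-β and activin signals had 2 shared regions each. *Smad3* had 5 and 23 peaks, and its regions lay 15.5 and 93.3 kb away, with folds between 3.33 and 4.50. *Smad2* had 4 and 17 peaks, and its regions lay 64.8 and 91.9 kb away. *Smad4*, for the partner common to both branches, had 3 and 8 peaks and 2 regions, neither nearest to *Smad4*. The region near *Mex3c* given above was one of them, and the other, inside *Elac1*, had folds of 4.21 and 4.58.

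The inhibitory Smads had regions inside the gene as well as outside. *Smad6* had 8 replicate 1 peaks, 28 replicate 2 peaks and 6 shared regions, 2 of them inside. These lay at chr9:63968491-63968573, with folds of 5.10 and 3.55, and at chr9:63988350-63988565, with folds of 8.10 and 4.29 and 14 fragments in each replicate. The *Smad6* regions outside the gene had lower folds of 3.17 to 3.84. The one at chr9:63895836-63895924 had a −log10 q of 1.07 on 4 fragments in replicate 1. *Smad7* had 9 and 16 peaks and 4 shared regions. The one inside, at chr18:75387730-75387816, had folds of 5.28 and 4.23, whereas one at chr18:75348393-75348911, 18.5 kb away, had folds of 7.09 and 9.12 and 13 and 29 fragments. For 5 of the 6 *Smad6* regions and 3 of the 4 *Smad7* regions the Smad gene was the nearest protein-coding gene or held the region.

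Of the 6 genes for extracellular antagonists and modulators, 5 had a shared region, against 60.2% of all protein-coding genes. There were 9 regions in 7 places, with a mean of 1.5 against 1.32 for protein-coding genes of their lengths. *Bmper*, which encodes a modulator that binds BMPs, had 7 and 11 peaks and 3 shared regions, all inside the gene within 1 kb of their neighbour. These were at chr9:23444453-23444570, chr9:23445251-23445254 and chr9:23445470-23445537, with folds from 3.77 to 6.19. They rested on 5 to 7 fragments in replicate 1 and 7 to 12 in replicate 2. *Nog* and *Chrd* encode noggin and chordin, which bind BMPs and keep them from their receptors. *Nog* had 2 and 8 peaks and 1 shared region 65.9 kb away with folds of 7.67 and 5.22, and *Chrd* had 2 and 10 peaks and 2 shared regions 23.1 and 64.8 kb away. *Grem1*, for the antagonist gremlin, had 2 and 3 peaks and 1 shared region 5.07 kb away with folds of 5.05 and 5.24. *Chrdl2*, for a relative of chordin, had 6 and 10 peaks and 2 shared regions, both nearest to or in *Rnf169*. *Fst*, for follistatin, which binds activins, had 2 peaks in each replicate and no shared region within 263 kb.

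The *Id* genes are short, and none held a shared region, as only 2.34% of protein-coding genes under 10 kb did. *Id1* had 6 and 12 peaks and 3 shared regions, with *H13* or *Rem1* nearer to each. *Id3* had 7 and 14 peaks and 3 shared regions, the strongest at chr4:136124417-136124676, 19.1 kb away, with folds of 6.77 and 6.53 and 10 and 18 fragments. *Id4* had 2 and 4 peaks and 1 shared region 25.2 kb away, whereas *Id2* had 2 and 8 peaks and its nearest shared region lay 158 kb away. The 4 genes had a mean of 1.75 shared regions against 1.01 for protein-coding genes of their length.

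Both genes for latent TGF-β binding proteins, which store TGF-β in the matrix, held shared regions. Of protein-coding genes, 53.0% did so at 100 kb and over and 22.4% at 30 to 100 kb. *Ltbp1* had 8 and 21 peaks and 5 shared regions, 3 inside the gene. Beside the strong region given above, these were at chr17:75159921-75160038, with folds of 5.29 and 4.65, and at chr17:75319336-75319376, with folds of 5.01 and 5.24. *Ltbp2* had 5 and 16 peaks and 3 shared regions. The pair inside, at chr12:84847230-84847317 and chr12:84853201-84853306, had folds of 5.94 and 5.32 in replicate 1 but 2.90 and 3.14 in replicate 2, where their −log10 q was 1.11 and 1.51, near the limit of 1 at which that list stops.

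The 7 genes without a shared region were *Bmp5*, *Gdf6*, *Bmp1*, *Acvr2a*, *Bmpr1a*, *Fst* and *Id2*. Of these, *Bmpr1a*, *Id2* and *Fst* came closest to one, at 143, 158 and 263 kb. At the other side of the 100 kb limit, the farthest regions that were counted lay 96.6 kb from *Smad1* and 96.1 kb from *Bmp2*. Each of the 7 genes had at least 1 replicate 2 peak within 100 kb, as did 91.7% of protein-coding genes. Without a control library, such a peak cannot be read as signal of DLX2.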

How the data were processed

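DLX2 CUT&Tag was profiled in 2 libraries of E12.5 maxillary process cells. Per the submitters' processing notes the authors used Trim Galore 0.4.5, Bowtie 1.1.2 and MACS2 2.2.7 on mm10, whereas the study's methods name another version of the trimmer and bowtie2. The labels describe sonicated, antibody-isolated DNA and the methods transposase tagging. Peaks were listed per library. The deposited score is 10 times the −log10 q, the deposited fold is a ratio to local background, the deposited −log10 p and q are the caller's own, and the summit is given in bases from the peak start. Depth is not given. Fragments at summits were inferred from fold and −log10 p as a Poisson upper tail, within 0.001, for 100% of peaks, with background floors of 0.387 (replicate 1) and 1.1 fragments (replicate 2). Shared regions overlapped by at least 1 bp. RefSeq extents of GRCm38.p6 were used, without genes listed before position 3000000 (Y excepted). All 46 symbols matched. Length classes broke at 10, 30 and 100 kb. Wilson (95%) and exact Poisson intervals cover counting error only, and nothing was tested for want of groups. The members, the list of 52 other genes and the naming rule were chosen with earlier results of these data known. Regions were chosen for description where they lay in or within 2 kb of a gene, among the 10 strongest, or at the 5 genes with most regions (6 with ties). At these last genes not every region was given singly. Code was checked on simulated lists. The planned motif share inside peaks needed a genome sequence, so promoters were searched instead. Values were computed in Python 3.11.15 with scipy 1.17.1, pandas 2.3.3 and numpy 2.4.6, and drawn with matplotlib 3.10.9.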

Additional observations from a re-analysis of the deposited data

How the results depend on the processing

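Counts moved with the peak threshold, the window and with the use of a single replicate. At a −log10 q of at least 5, 11 of the 46 genes had a shared region within 100 kb and 2 inside, with 17 regions or 1.38 per Mb; protein-coding genes then came to 14.9% against 23.9% for the 46. At a fold of at least 5, 21 genes had one within 100 kb and 4 inside, with 32 regions or 2.6 per Mb, and the shares were 28.6% and 45.7%. Requiring 50% of each peak left 49 regions or 3.98 per Mb, and summits within 150 bp gave 6.34 per Mb. Windows of 50 kb held 64 regions, and windows of 2 kb held 21 at 11 genes, or 6.37 per Mb. Counting a region only for its holding or nearest protein-coding gene left 54. With either replicate alone, genes with a peak within 100 kb ranged from 44 to 46, genes with a peak inside from 18 to 31, peaks from 222 to 540 and their density from 18 to 43.9 per Mb. Fewer or more peaks enter by construction. The share of the 46 genes with a region or peak in the window lay above that of all protein-coding genes in these settings. For 11 of 46 genes, the count at a −log10 q of at least 5 and in windows of 2 kb, the Wilson interval is 13.9 to 37.9%. This interval includes the 14.9% and 16.0% of protein-coding genes. The share was not computed for the setting of the nearest gene. For the counts inside the gene, no share of protein-coding genes was computed in these settings. Genes of like length were not used here either. In windows of 2 kb the shares were 23.9% and 16.0%. The main count inside the gene, also 23.9%, stood against 20.7% of protein-coding genes at the same lengths. Merging regions within 1 kb, chosen after seeing the data, left 39 genes and 87 regions. The switch from TAATTA to TAATT or AATTA, which took the promoter count from 0 to 6, was also chosen then. Motif alternatives for peaks were not run. No paired analysis was possible because there is 1 group. With 2 libraries and few fragments per peak, depth limits what a missing shared region can say.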

Other observations

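Among the 52 other pathway genes, *Lefty1* and *Lefty2*, which encode inhibitors of nodal signals, each had 7 shared regions within 100 kb. They are neighbours and share most of their windows, and replicate 1 and replicate 2 had 10 and 13 peaks around *Lefty1* and 9 and 13 around *Lefty2*. *Nbl1*, for an antagonist of BMPs, *Tdgf1*, for the nodal co-receptor cripto, *Gdf1* and *Dand5* had 5 shared regions each.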
